A study of Mus musculus with 9 samples.

Results

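The genes described here are 7 regulators of red blood cell formation: Gata1, Klf1, Gfi1b, Nfe2, Zfpm1, Hemgn and Ldb1. They were chosen by name, without a measured value in the rule, and are 7 of the 47480 genes in the count table. All 7 passed the filter on low counts, which 16426 genes passed. RNA sequencing was done on primary blood-forming cells of C57BL/6 mice in 9 libraries and 4 groups. Both populations were treated alike with the translation inhibitor cycloheximide (100 ug/ml, 10 min), and no gene was altered in any group. The LSK group stands in the labels for stem cells, and the name is commonly used for lineage-negative cells positive for Sca-1 and Kit. The MP group stands for progenitor cells, and the labels do not spell the name out. Total RNA was taken from the lysate before a sucrose gradient, and polysomal RNA was fraction 7 of that gradient, where messages carrying several ribosomes sediment. There were 2 LSK total, 2 LSK polysomal, 2 MP total and 3 MP polysomal libraries. The sources used here do not state the age and sex of the mice, the sorting gates or the animals behind each library, so the p-values measure the spread between these libraries, which may in part be technical.

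Gata1 is a zinc finger factor that binds GATA motifs and is required for red cells, megakaryocytes, eosinophils and mast cells. It works with the cofactor Zfpm1, also called Friend of GATA. It also works in a complex with Tal1, Lmo2 and Ldb1, in which Ldb1 joins distant enhancers to promoters. Klf1 binds CACCC boxes in globin, heme and red cell membrane genes. Nfe2 pairs with a small Maf protein, Gfi1b represses genes through the demethylase Kdm1a and its partner Rcor1, and Hemgn is a nuclear protein of blood-forming cells that is itself regulated by Gata1. Most of these genes are also used in megakaryocytes, and Gata1, Zfpm1 and Gfi1b lie on the path from multipotent cells to the red cell lineage.

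Total counts ran from 27342343 to 34807735 per library. Markers of stem cells were lower in MP, with 9 of 12 such genes called lower over both fractions, among them Procr and Hlf. Markers of granulocyte and monocyte progenitors were higher, with 8 of 12 called. Of all tested genes 10.1% were called in either direction over both fractions. Some libraries stood apart in markers of other cell types: the summed level of 14 maturing neutrophil genes was 15550 CPM (counts scaled to library size) in MP total 1 and 20870 CPM in MP polysomal 1, against 478 to 2818 CPM in the other 7 libraries. The summed level of 12 B cell genes was 5061 CPM in LSK total 2 and 3460 CPM in LSK polysomal 2, against 207.8 to 1158 CPM elsewhere. These libraries were left out in turn where a result rests on them.

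Gata1 (chrX:7959260-7978071, minus strand, GRCm38) was higher in MP than in LSK over both RNA fractions, and was the 1 regulator of the 7 whose population difference passed the test. In total RNA its level was 54.3 and 45.6 CPM in the LSK libraries and 229.7 and 227.7 CPM in the MP libraries. In polysomal RNA it was 116.0 and 123.5 CPM in LSK and 359.5, 376.2 and 299.4 CPM in MP. Every MP library lay above every LSK library, and within each of the 4 groups the highest library was at most 1.26 times the lowest. The rise in MP, averaged over both fractions, was 1.86 ± 0.30 on the log2 scale (SE, 5 MP against 4 LSK libraries), a 3.63-fold difference, with an adjusted p of 0.00549 (edgeR quasi-likelihood test, Benjamini-Hochberg over 16426 genes). In that comparison 10.1% of all tested genes were called in either direction and 2.72% were called higher. At an unadjusted p under 0.05 there were 3 of the 7, Gata1, Klf1 and Gfi1b, against 24% of all genes.

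Within single fractions the Gata1 difference did not pass 0.05. In total RNA it was 2.19 ± 0.44 (SE, 2 against 2 libraries, edgeR adjusted p = 0.0503), where 1.09% of all genes were called. In polysomal RNA it was 1.53 ± 0.40 (SE, 3 against 2 libraries, edgeR adjusted p = 0.0750), where 3.35% were called. None of the 7 regulators was called in either fraction by edgeR. An unadjusted p under 0.05 was found for 1 in total RNA and 2 in polysomal RNA, as for 17.1% and 17.8% of all genes. DESeq2 called 1 in total RNA, where it called 1471 of all genes, and 2 in polysomal RNA, where it called 1624. Gata1 was called in both (DESeq2 adjusted p = 6.54e-05 and 0.00329) and Gfi1b in polysomal RNA (DESeq2 adjusted p = 0.0340). The Gata1 call over both fractions was lost without both MP libraries numbered 1, the ones rich in neutrophil RNA. The difference was then 1.87, with 1 MP total library left, and fewer of all genes were called as well. The averaged comparison treats total and polysomal libraries as separate samples, although both can come from 1 lysate and the labels do not say which do. With the 2 fractions of each population and number summed, 2 against 2, the difference was 1.92 and the adjusted p 0.0892, in a comparison that called 0 genes in all. In bulk RNA, more cells that use a gene and more RNA per cell cannot be told apart.

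**Figure D1:**
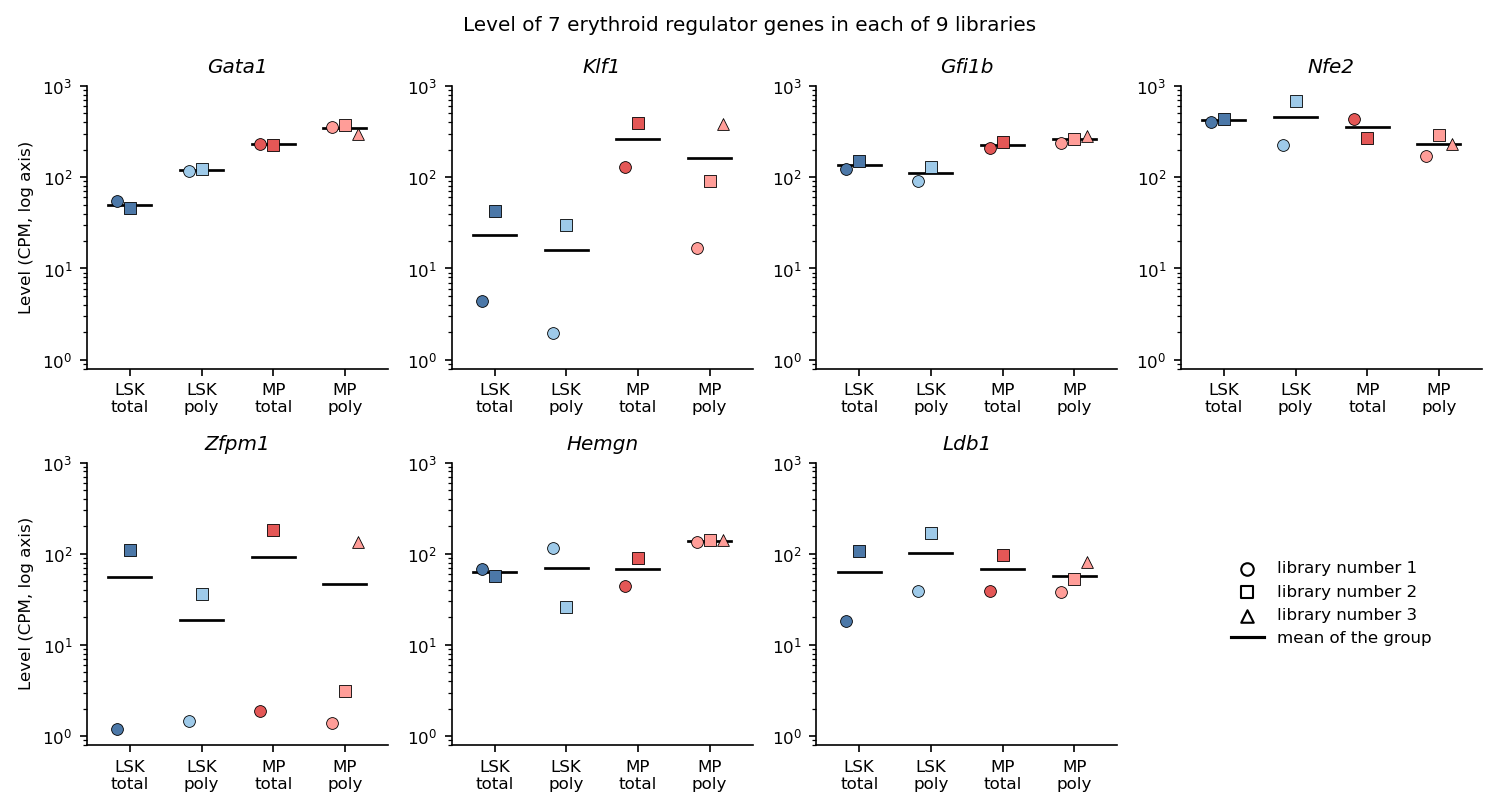
Level of each of the 7 regulators in CPM (vertical axis, log scale) in each of the 9 libraries, by group on the horizontal axis; symbols mark the library number and the bar is the group mean. The 5 MP libraries lie above the 4 LSK libraries for Gata1 and Gfi1b, while the Zfpm1 points of 1 group lie up to 96.4-fold apart.

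Klf1 (chr8:84901928-84905291, plus strand) had the largest estimated difference between the populations among the 7, and also a wide spread between libraries of 1 group. In total RNA it stood at 4.38 and 42.7 CPM in LSK and at 130.1 and 393.1 CPM in MP. In polysomal RNA it stood at 1.96 and 29.8 CPM in LSK and at 16.8, 90.5 and 382.3 CPM in MP. The total RNA groups did not overlap, as they also did not for Gata1 and Gfi1b and for 22.8% of all tested genes that were higher in MP, whereas the lowest MP polysomal library lay below the higher LSK one. The estimated difference over both fractions was 3.42 ± 1.15 (SE) on the log2 scale and did not pass (edgeR adjusted p = 0.0979). DESeq2 called it (DESeq2 adjusted p = 0.00270), in a comparison where it called 2706 of all genes. Without both LSK libraries numbered 2, the higher of each pair, the estimate was 6.14, with 1 library left in each LSK group. In total RNA it was 3.47 ± 1.66 (SE, edgeR adjusted p = 0.328), and in polysomal RNA 3.36 ± 1.60 (SE, edgeR adjusted p = 0.315).

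In all 9 libraries Klf1 deviated from its group's mean in the same direction as the median of the 50 tested genes nearest to it in GC content, the share of G and C in the message. In a group of 2 libraries the 2 deviations are equal and opposite, so the second agreement follows from the first. In LSK these genes were higher in the libraries numbered 2, left out above. Their median deviation from the mean over the 9 libraries was 0.305 (total) and 1.39 (polysomal) log2 units there. It was −0.92 and −1.32 in those numbered 1. The part of GC content in the estimate without the libraries numbered 2 was not tested. The longest Klf1 transcript is 61.0% G or C, above 98.6% of the tested genes, whose median is 49.3%. Zfpm1 is at 66.8%, Ldb1 at 57.9%, Gfi1b at 57.5%, Gata1 at 55.2%, Nfe2 at 51.6% and Hemgn at 45.1%. The whole coding sequence is 65.1% G or C for Zfpm1, 65.4% for Klf1, 57.7% for Gata1 and 49.4% for Hemgn. The stretches below are examples from it, and their shares differ from those of the whole. Each is the middle 120 bases of the longest coding exon, 5′ to 3′ on the gene's own strand in GRCm38, with every G and C in capitals. They lie in coding exons at chr8:122336250-122336369 (Zfpm1, plus strand, 64.2% G or C), chr8:84903036-84903155 (Klf1, plus strand, 75.0%), chrX:7962300-7962419 (Gata1, minus strand, 60.8%) and chr4:46396392-46396511 (Hemgn, minus strand, 46.7%).
Zfpm1: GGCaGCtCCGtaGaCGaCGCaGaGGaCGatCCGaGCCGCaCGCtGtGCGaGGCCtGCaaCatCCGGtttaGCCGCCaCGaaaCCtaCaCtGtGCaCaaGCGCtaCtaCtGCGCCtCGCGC
Klf1: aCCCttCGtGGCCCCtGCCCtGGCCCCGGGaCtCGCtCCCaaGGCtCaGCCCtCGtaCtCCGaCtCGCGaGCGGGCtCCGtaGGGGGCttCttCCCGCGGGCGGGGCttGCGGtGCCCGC
Gata1: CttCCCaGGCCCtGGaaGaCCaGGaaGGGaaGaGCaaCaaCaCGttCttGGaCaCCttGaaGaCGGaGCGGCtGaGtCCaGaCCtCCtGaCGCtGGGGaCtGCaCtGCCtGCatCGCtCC
Hemgn: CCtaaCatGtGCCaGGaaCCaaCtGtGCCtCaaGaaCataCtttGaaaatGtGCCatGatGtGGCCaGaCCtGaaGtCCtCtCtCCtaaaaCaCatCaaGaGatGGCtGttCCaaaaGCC

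With the trend of each library's levels on GC content taken off, an alternative chosen after the data were seen, Klf1 was called higher in MP over both fractions, at 3.86 ± 0.69 (SE, edgeR adjusted p = 0.00621). That fit called 12.1% of all genes in this comparison. The same fit gave 4.24 ± 0.98 (SE) in polysomal RNA, with an edgeR adjusted p of 0.0397, where 4.13% of all genes were called. In total RNA it gave 3.48 ± 0.97 (SE, edgeR adjusted p = 0.101), where 2.08% were called. Leaving out each library in turn, the averaged Klf1 difference ran from 3.48 to 4.47 under this fit. With the GC trend kept, where Klf1 was not called with all libraries, it ran from 2.62 to 4.94. In polysomal RNA the ranges were 3.48 to 5.28 under this fit and 1.76 to 6.38 with the GC trend kept. These omissions can leave 1 library in a group. The Gata1 difference over both fractions changed little with the GC trend removed, at 1.85 ± 0.33 (SE) with an edgeR adjusted p of 0.00590.

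**Figure D2:**
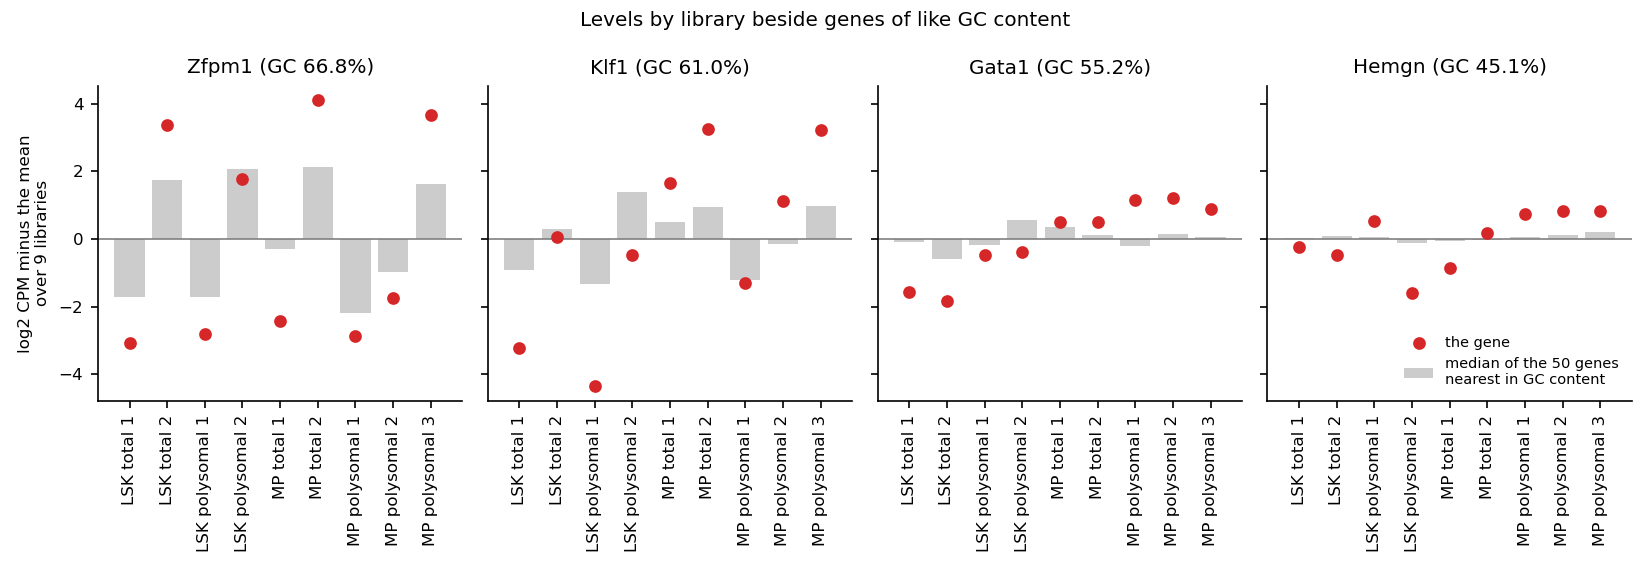
Level of Zfpm1, Klf1, Gata1 and Hemgn in each library as log2 CPM minus the mean over the 9 libraries (red points), with the median of the same quantity for the 50 tested genes nearest in GC content (grey bars). The Zfpm1 point and its bar have the same sign in all 9 libraries, whereas the Gata1 points are below 0 in the 4 LSK libraries and above 0 in the 5 MP libraries.

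For Zfpm1 (chr8:122282141-122337251, plus strand), the Gata1 cofactor, libraries of 1 group differed by more than the group means did. Its level was 1.20 and 109.0 CPM in LSK total, 1.46 and 36.0 CPM in LSK polysomal, 1.90 and 181.8 CPM in MP total, and 1.40, 3.11 and 135.0 CPM in MP polysomal RNA. The low libraries held 41 to 94 Zfpm1 reads and the high ones 866 to 5601. Within groups the highest library was 24.6 to 96.4 times the lowest, against a median of 1.41 to 2.05 for 9073 genes of at least 10 CPM on average. The 50 tested genes nearest to Zfpm1 in GC content were high in the same 4 libraries and low in the same 5, with a median 1.64 to 2.14 log2 units above their mean in the former and −0.29 to −2.18 from it in the latter. Its own deviations ran from 4.10 to −3.07, and the part of GC content in them was not tested. The estimated difference over both fractions was 1.02 ± 1.69 (SE, edgeR adjusted p = 0.794), and it was 1.48 ± 1.06 (SE, edgeR adjusted p = 0.430) with the GC trend removed.

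Ldb1 (chr19:46031570-46045214, minus strand), the bridging partner of the Tal1 and Lmo2 complex, showed a like but smaller split. It stood at 18.3 and 106.7 CPM in LSK total, 39.4 and 166.7 CPM in LSK polysomal, 38.9 and 95.9 CPM in MP total, and 38.5, 52.6 and 81.9 CPM in MP polysomal RNA. The groups overlapped in every comparison. The estimate over both fractions was −0.36 ± 0.62 (SE, edgeR adjusted p = 0.802), and it was above 0 without LSK polysomal 2 (0.34) or without LSK total 2 (0.52). Across the 9 libraries the log2 levels of Ldb1 and Zfpm1 had a Pearson r of 0.83, as a description over libraries that share their GC trends. Exons of Ldb1 touch those of Pprc1 on the opposite strand, and it is not stated whether counting used strand, so reads from the pair may be mixed. Pprc1 stood at 43.3 to 333.4 CPM.

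Gfi1b (chr2:28609450-28621982, minus strand), the repressor, lay higher in each MP library than in any LSK library, but did not pass the test. Its level was 121.6 and 150.5 CPM in LSK total, 91.0 and 128.7 CPM in LSK polysomal, 208.7 and 245.4 CPM in MP total, and 239.5, 262.4 and 282.5 CPM in MP polysomal RNA. All 5 MP libraries lay above all 4 LSK libraries, as they did for 4.34% of the tested genes. The estimate over both fractions was 0.99 ± 0.30 on the log2 scale (SE), a 1.99-fold difference that did not pass (edgeR adjusted p = 0.0681). DESeq2 called it, with an adjusted p of 0.0126, where it called 2706 of all genes. By fraction the estimate was 0.74 ± 0.44 (SE) in total RNA and 1.25 ± 0.41 (SE) in polysomal RNA, with edgeR adjusted p-values of 0.443 and 0.143. With the GC trend removed it was 0.39 ± 0.48 (SE) in total RNA and 1.67 ± 0.46 (SE) in polysomal RNA. It was 1.03 ± 0.33 (SE) over both fractions in that fit, and did not pass in any of these comparisons.

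Nfe2 (chr15:103248212-103258403, minus strand) did not share the direction of Gata1 and Gfi1b in its estimates. It stood at 402.7 and 439.5 CPM in LSK total, 226.2 and 683.4 CPM in LSK polysomal, 439.1 and 267.6 CPM in MP total, and 168.8, 292.9 and 233.9 CPM in MP polysomal RNA. The populations overlapped in both fractions. The estimate over both fractions was −0.61 ± 0.40 (SE, edgeR adjusted p = 0.407). In polysomal RNA it was −0.97 ± 0.53 (SE, edgeR adjusted p = 0.384) and rested on LSK polysomal 2, without which it was 0.04.

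Hemgn (chr4:46393989-46413506, minus strand) overlapped between the populations in total RNA and lay higher in each MP library in polysomal RNA. In total RNA it stood at 67.9 and 57.6 CPM in LSK and 44.4 and 90.9 CPM in MP, where the estimate was 0.11 ± 0.68 (SE, edgeR adjusted p = 0.959). In polysomal RNA it stood at 114.8 and 26.3 CPM in LSK and at 134.3, 141.5 and 142.8 CPM in MP. The MP polysomal values lay within 1.06-fold of each other and above both LSK values, as they did for 15.0% of the tested genes. The estimate there was 0.98 ± 0.64 (SE, edgeR adjusted p = 0.473), and it depended on the LSK libraries: 2.53 without LSK polysomal 1 and 0.29 without LSK polysomal 2. Its levels ran against those of Nfe2 over the 9 libraries, with a Pearson r of −0.92, which is a description over libraries that share 4 groups.

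**Figure D3:**
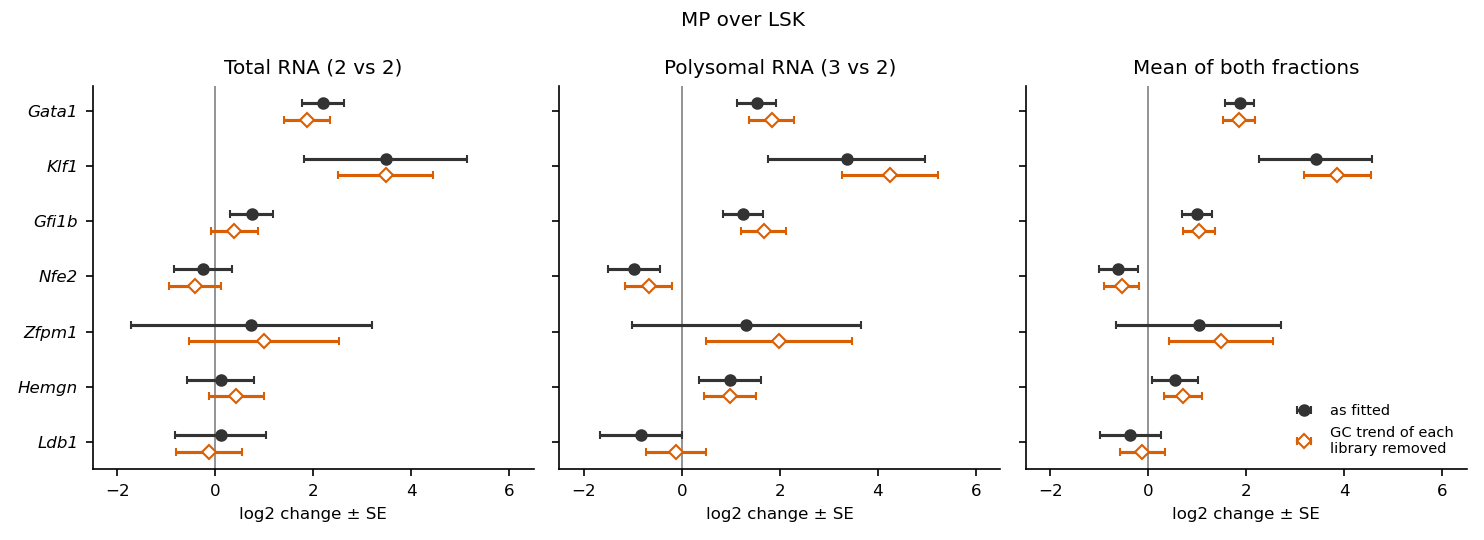
Estimated log2 difference of MP over LSK (horizontal axis) for each regulator in total RNA, polysomal RNA and the mean of both, with bars of 1 SE; filled points are the fit as reported and open diamonds the fit after removal of GC trends. In the fit as reported Gata1 and Gfi1b have narrow bars above 0. Once the GC trend is removed, the Gfi1b bar in total RNA crosses 0 and the bars of Klf1 and Zfpm1 are shorter.

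The order of the levels was compared per kilobase of annotated exons, since the genes differ in length. In LSK total RNA Nfe2 was highest at 140.9 ± 8.7 CPM per kb (SD, n = 2), followed by Gfi1b at 74.3 ± 11.2, Hemgn at 25.01 ± 2.9 and Gata1 at 20.5 ± 2.5 CPM per kb. Zfpm1, Klf1 and Ldb1 followed at means of 15.7, 15.4 and 13.6 CPM per kb with SDs as large as the means or larger, so that these 3 do not differ from each other or from Gata1 beyond their spread. Hemgn and Gata1 are closer when the longest transcript is used as the length, at 26.6 and 26.3 CPM per kb. In MP total RNA Klf1 led with a mean of 171.0 ± 121.5 CPM per kb (SD, n = 2), but it did not differ beyond its spread from Gfi1b at 124.1 ± 14.2, Nfe2 at 118.3 ± 40.6 or Gata1 at 93.8 ± 0.59 CPM per kb. By the longest transcript Nfe2 had the highest mean there, at 188.1 CPM per kb against 171.0 for Klf1. In MP polysomal RNA Gfi1b at 142.9 ± 11.8 and Gata1 at 141.5 ± 16.6 CPM per kb (SD, n = 3) overlapped, and both were above Nfe2 at 77.6 ± 20.8 and Hemgn at 55.6 ± 1.8 CPM per kb. This order depended on the length used. By the longest transcript Gata1 was at 181.4, Gfi1b at 143.5 and Nfe2 at 123.5 CPM per kb. Each Gata1 library then lay above each Gfi1b library, and the Gfi1b and Nfe2 libraries overlapped. In LSK polysomal RNA the means ran from 152.2 ± 108.2 CPM per kb for Nfe2 (SD, n = 2), through 60.0 ± 14.6 for Gfi1b and 49.1 ± 2.2 for Gata1, to 5.34 ± 6.96 CPM per kb for Zfpm1, and Nfe2 did not differ from Gfi1b or Gata1 beyond its spread. By the longest transcript Gfi1b was at 60.3 and Gata1 at 63.0 CPM per kb there.

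None of the 7 regulators was called between polysomal and total RNA in either population, nor in the difference of the 2 ratios, and neither was any other gene: 0% of all tested genes were called in these 3 comparisons by edgeR. At an unadjusted p under 0.05 there was 1 regulator in LSK and 0 in MP and in the difference, against 12.1%, 7.57% and 5.29% of all genes. DESeq2 called 0 of the 7 in each, and 433, 30 and 1 of all genes. The 1 in LSK was Gata1, whose polysomal levels of 116.0 and 123.5 CPM lay above its total levels of 54.3 and 45.6 CPM. Its ratio of polysomal to total RNA was 1.26 ± 0.42 on the log2 scale in LSK (SE, edgeR adjusted p = 0.281) and 0.59 ± 0.39 in MP (SE, edgeR adjusted p = 0.775). The groups did not overlap in either population, as for 16.2% of genes in LSK and 16.3% in MP. The difference between the 2 ratios was −0.67 ± 0.56 (SE, edgeR adjusted p = 0.883). With the GC trend removed the ratio was 1.01 ± 0.47 in LSK and 0.97 ± 0.43 in MP (SE), and the difference −0.04 ± 0.62 (SE).

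Of the other ratios only those of Hemgn and Nfe2 in MP were larger than their SE, and none passed the test. Several changed direction when single libraries were left out. Hemgn had a polysomal to total ratio of 1.04 ± 0.64 in MP (SE, edgeR adjusted p = 0.750), with the 3 polysomal libraries above both total ones, and of 0.17 ± 0.68 in LSK (SE, edgeR adjusted p = 0.942). Gfi1b stood at −0.31 ± 0.44 in LSK and 0.20 ± 0.40 in MP (SE), and Nfe2 at 0.11 ± 0.59 and −0.61 ± 0.53 (SE). For Klf1 the ratio was −0.57 ± 1.51 in LSK and −0.68 ± 1.36 in MP (SE), and for Zfpm1 it was −1.56 ± 2.50 and −0.98 ± 2.20 (SE). Ldb1 stood at 0.72 ± 0.93 and −0.23 ± 0.84 (SE). The levels of 12 macrophage genes moved with the fraction as well: their median ratio was 2.53 in LSK, with 0 of 12 called, and their summed level was 48.5 and 108.0 CPM in the LSK total libraries and 222.1 and 244.1 CPM in the polysomal ones. Their part in the ratios of the regulators was not tested.

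**Figure D4:**
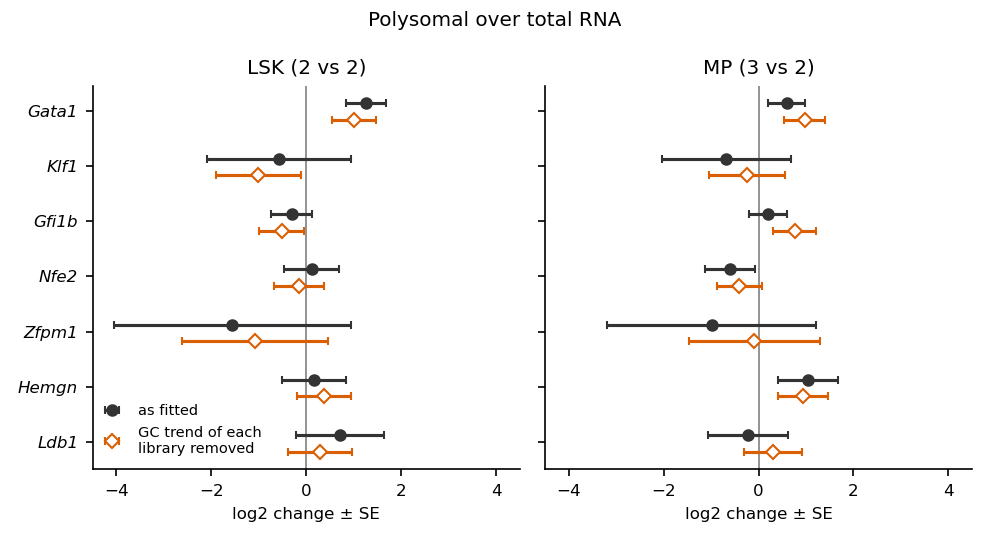
Estimated log2 ratio of polysomal over total RNA (horizontal axis) for each regulator in LSK and in MP, with bars of 1 SE; filled points are the fit as reported and open diamonds the fit after removal of GC trends. Gata1 lies above 0 in both populations, and no point passed the test after adjustment.

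Genes that these regulators are known to act on were higher in MP. Of 40 such genes, 39 were in the table and tested, and over both fractions 16 were called higher and 0 lower, with a median of 1.61 against −0.01 for all genes. Of all genes 2.72% were called higher over both fractions. In total RNA 9 and in polysomal RNA 13 were called higher, where 0.274% and 0.524% of all genes were. Among the 16 were Ank1, Car1, Cldn13, Ermap, Rhag, Rhd, Sptb and Tfrc, and most of these encode proteins of the red cell membrane or its skeleton. Ermap, a red cell adhesion protein, rose from 24.1 ± 7.8 to 425.2 ± 79.4 CPM in total RNA (SD, n = 2 each) and from 34.3 ± 14.8 to 581.8 ± 46.2 CPM in polysomal RNA (SD, n = 2 and 3). The carbonic anhydrase gene Car1 rose by 3.24 ± 0.34 over both fractions (SE, edgeR adjusted p = 0.00145). Ank1, which anchors the membrane skeleton, rose by 4.02 ± 0.46 (SE) and the claudin gene Cldn13 by 4.14 ± 0.47 (SE), both with an edgeR adjusted p of 0.00170. The blood group gene Rhd rose by 3.41 ± 0.39 and the spectrin gene Sptb by 5.60 ± 0.68 (SE), with adjusted p-values of 0.00170 and 0.00216.

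The globin and heme genes on the same list were not called. Alas2, the enzyme that starts heme synthesis in red cells, had an estimate of 0.39 ± 0.60 (SE, edgeR adjusted p = 0.778) over both fractions. Hba-a1 stood at 0.58 ± 0.67 and Hbb-bt at 0.35 ± 0.62 (SE), with adjusted p-values of 0.689 and 0.809. The adult globin genes have near-identical copies, between which reads may have been split. Alas2, Hba-a1 and Hbb-bt, and the receptor gene Epor, were chosen after their values were seen. Epor, the erythropoietin receptor, was called, with a rise of 2.89 ± 0.67 (SE, edgeR adjusted p = 0.0248). The count over both fractions was 13 without both MP libraries numbered 1 and 13 to 19 leaving out each library in turn, and 0 with the fractions summed by number, where no gene at all was called. In total RNA the count of 9 fell to 0 when any 1 of the 4 total RNA libraries was left out, and also when any 1 of the 3 MP polysomal libraries was. In polysomal RNA the count of 13 fell to 7 without LSK polysomal 1, 1 without LSK polysomal 2, 2 without MP polysomal 3 and 0 without MP polysomal 1 or MP polysomal 2.

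**Figure D5:**
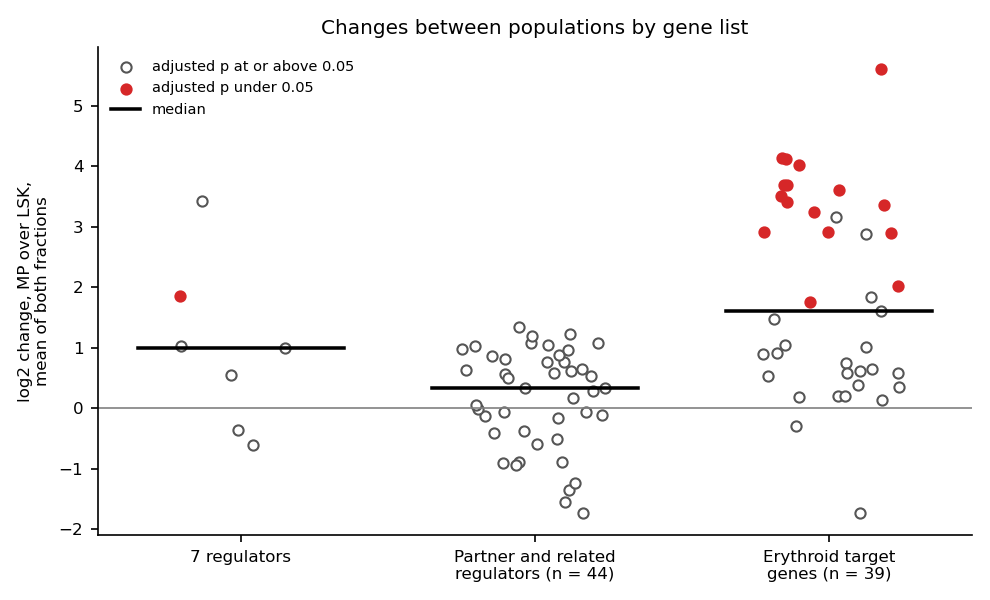
Estimated log2 difference of MP over LSK, averaged over both fractions (vertical axis), for the 7 regulators, 44 partner and related regulators and 39 erythroid target genes, 1 point per gene with the median as a bar. Filled points passed an adjusted p of 0.05: 1 of 7 regulators, 0 of 44 partners and 16 of 39 targets, against 10.1% of all tested genes.

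Of the 44 partners and related regulators tested, among them Tal1, Lmo2, Runx1, Gata2, Kdm1a, Rcor1 and the small Maf genes, edgeR called 0 in each of the 6 comparisons. Over both fractions edgeR called 10.1% of all tested genes. There 7 of the 44 had an unadjusted p under 0.05, 2 higher and 5 lower, against 24% of all genes. DESeq2 called 3 of the 44, and 2706 of all genes. The count of 0 over both fractions ran up to 4 in other settings. Their median difference was 0.33, and the lists were not tested against each other. The smallest p was that of Sox6, a factor that helps silence embryonic globin, whose level in total RNA was 49.8 ± 29.7 CPM in LSK and 9.89 ± 2.36 CPM in MP (SD, n = 2 each). Its estimate over both fractions was −1.72 ± 0.48 (SE, edgeR adjusted p = 0.0526). Bach2, a repressor that pairs with small Maf proteins, stood at −1.36 ± 0.39 (SE, edgeR adjusted p = 0.0561). Mafg, a small Maf partner of Nfe2, stood at 1.02 ± 0.34 (SE, edgeR adjusted p = 0.0957). For Tal1, Lmo2 and Gata2 the estimates were 0.06 ± 0.57, −1.24 ± 0.79 and −0.51 ± 0.45 (SE), with adjusted p-values of 0.976, 0.399 and 0.582; these 3 were named after their values were seen.

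Other lineages that use Gata1, Zfpm1, Gfi1b or Nfe2 were followed through their own markers. Of 16 tested megakaryocyte genes, 0 were called higher in MP and 2 lower over both fractions, among them Selp, and their summed level ran from 764.5 to 1755 CPM in LSK and from 268.5 to 964.1 CPM in MP. The platelet collagen receptor gene Gp6 was at 0 reads in 7 of 9 libraries. Of 16 tested mast cell, basophil and eosinophil genes, 3 were called higher and 2 lower. Prg2, of eosinophil granules, and Hdc, which makes histamine, were among the higher, and the mast cell proteases Tpsb2 and Cma1 were the lower. Their summed level ran from 157.4 to 456.4 CPM in LSK and from 372.9 to 1068 CPM in MP. Of 12 B cell genes 5 were called lower in MP, of 6 tested T and NK cell genes 2 lower, of 12 macrophage genes 3 higher and 1 lower, and of 14 maturing neutrophil genes 2 higher. Beside these counts over both fractions, 10.1% of all tested genes were called in either direction. The part of these cells in the levels of the 7 regulators was not tested.

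The 5 genes whose log2 levels were most like those of Gata1 over the 9 libraries, among 9072 other genes of at least 10 CPM on average, were Slc26a1, Asns, Spon2, Slc38a5 and Pdhb, with a Pearson r of 0.990 to 0.978. For Klf1 they were Ache, the acetylcholinesterase gene, Fam132a, Mboat2, Me2 and Helq, with an r of 0.980 to 0.967. With library totals as the scaling 4 of the 5 genes were the same for each, and with Spearman's rank correlation 0 of 5 for Gata1 and 2 of 5 for Klf1 were. Of the pairs within the 7, Gata1 and Gfi1b had an r of 0.77 and Klf1 and Gfi1b one of 0.83, all as descriptions over libraries that share groups and GC trends.

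With the GC trend kept, Klf1, Gfi1b and Gata1 had the 3 estimates that lay above 0 by at least their SE in both fractions. The stretches ahead of their starts are therefore shown. RefSeq (GRCm38.p6) start sites were matched for 6 of the 7 genes, not for Nfe2. The letters AGATAA and AGATAG were searched, as were TGATAA and TGATAG, which are the common forms of the site that GATA factors bind. The search covered both strands in the 250 bases before each start, and 26.5% of 32851 such windows held a match. The 4 forms cannot start at the same base. Klf1 had a match starting 80 bases ahead of its start and Gfi1b one 120 bases ahead, Hemgn also had one, Ldb1 had them ahead of 1 of its 3 starts, and the windows of Gata1 and Zfpm1 held none. The windows lie at chr8:84901732-84901927 (Klf1, plus strand, printed up to its first annotated exon), chr2:28621983-28622232 (Gfi1b, minus strand) and chrX:7967911-7968160 (Gata1, minus strand, inside the annotated span of the gene). They are written 5′ to 3′ with a match in capitals.
Klf1: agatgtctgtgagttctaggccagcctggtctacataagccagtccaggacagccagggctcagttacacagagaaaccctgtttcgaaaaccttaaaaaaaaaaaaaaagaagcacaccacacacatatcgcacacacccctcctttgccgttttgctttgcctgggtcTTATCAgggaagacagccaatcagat
Gfi1b: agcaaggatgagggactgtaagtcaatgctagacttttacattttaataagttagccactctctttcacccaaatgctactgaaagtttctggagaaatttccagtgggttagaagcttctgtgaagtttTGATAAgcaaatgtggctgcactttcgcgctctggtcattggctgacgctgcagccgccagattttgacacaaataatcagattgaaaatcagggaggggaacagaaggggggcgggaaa
Gata1: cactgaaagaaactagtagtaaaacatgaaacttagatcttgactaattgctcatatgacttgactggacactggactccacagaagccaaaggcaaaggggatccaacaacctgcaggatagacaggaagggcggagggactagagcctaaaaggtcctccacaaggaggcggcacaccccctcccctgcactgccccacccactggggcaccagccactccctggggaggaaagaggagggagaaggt
A match is a run of letters and no measure of binding.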

How the data were processed

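RNA from 9 libraries was sequenced after SMARTer amplification, per the labels' protocols. The authors deposited raw counts of reads per gene symbol, made with STAR and featureCounts on GRCm38, per the submitters' processing notes. The sources used here do not state versions, annotation or the strand setting. They also deposited normalized values on a log2-like scale, used only as an alternative. Groups and library numbers came from the sample titles.

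Counts were fitted in R 4.3.3 with edgeR 4.0.16 (TMM scaling, filterByExpr with minimum count 10 and total 15, quasi-likelihood test, 1 mean per group over all 9 libraries, 5 residual degrees of freedom). P-values were two-sided and adjusted by Benjamini-Hochberg over 16426 genes, with 0.05 as the threshold. Levels are CPM on TMM-scaled totals. The fit was tested on data simulated with less spread between libraries than these counts have, so that test does not measure its accuracy here. DESeq2 1.42.0 and limma 3.58.1 served as alternatives, beside other scalings, filters, a replicate block, libraries left out, a GC trend (lowess, span 0.2) removed and fractions summed, of which the last pair was added after the data were seen. Lengths, GC content and coordinates came from GENCODE on GRCm38, read with Python 3.11.15.

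The 7 regulators, the lists of partners, targets and cell type markers and the tests were chosen with earlier results of these data known. Named by rule were the 7 regulators, up to 4 genes with the smallest p per comparison from the partners and targets, the 5 genes most like Gata1 and Klf1, and up to 2 called markers per cell type. The target gene Ahsp and the megakaryocyte gene Mpig6b are not analysed here. Some called genes of the lists are not reported here by name.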

Additional observations from a re-analysis of the deposited data

How the results depend on the processing

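The rise of Gata1 over both fractions kept its direction in all 30 other settings and its call in 28 of them. The call was lost without both MP libraries numbered 1 and with the fractions summed by number, settings in which fewer of all genes were called as well. Leaving out each library in turn it ran from 1.80 to 1.94, with edgeR adjusted p-values of 0.0126 to 0.0344. Scaling by library totals alone moved the median of all genes by up to −0.36 on the log2 scale. The count of all genes called was 179 in total RNA, 551 in polysomal RNA and 1657 over both, and it ran over the settings from 0 to 1471, 0 to 1624 and 0 to 2706. Leaving out 1 library at a time gave 0 to 446, 0 to 516 and 652 to 1480. DESeq2 called 1471, 1624 and 2706, and dropping the filter on low counts gave 1206, 1558 and 2636. With a replicate block it was 570, 418 and 1794. With only the compared groups fitted it was 0 in total RNA and 304 in polysomal RNA, and with fractions summed it was 0 over both. In total RNA the authors' normalized values gave 850, library totals 328, the GC trend removed 341, and that with the replicate block 641. Between polysomal and total RNA the count of 0 became 433 in LSK, 30 in MP and 1 in their difference with DESeq2, and 547, 22 and 4 without the filter. The authors' values gave 486 in LSK and the replicate block 1 in MP. The cause of these shifts was not tested.

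Among the 7 regulators, the count called in total RNA was 0. It was 2 without the filter, 1 with the stricter filter, 1 with DESeq2, 1 with the authors' values, 2 with the replicate block, 2 with the block and the GC trend removed, and 0 to 1 leaving out each library (1 without LSK polysomal 1 or LSK polysomal 2). In polysomal RNA the count of 0 became 1 without the filter, 2 with DESeq2, 1 with the GC trend removed, 2 with the block added to that, 0 leaving out each library, and 0 to 1 doing so with the GC trend also removed. Over both fractions the count of 1 became 2 without the filter, 3 with DESeq2, 2 with the replicate block, 2 without both LSK libraries numbered 2, 0 without both MP libraries numbered 1, 2 with the GC trend removed, 3 with the block added, 0 with fractions summed, 1 leaving out each library, and 2 doing so with the GC trend also removed. The target count in total RNA, 9, became 16 without the filter, 0 with only the compared groups, 0 without both MP libraries numbered 1, 0 to 12 leaving out each library, and 0 to 13 doing so with the GC trend also removed. In polysomal RNA the 13 became 6 with only the compared groups, 4 without both LSK libraries numbered 2, 0 without both MP libraries numbered 1, 0 to 12 leaving out each library, and 3 to 15 doing so with the GC trend also removed. Over both fractions the 16 became 0 with fractions summed. The partners called ran from 0 to 4 over both fractions, 0 to 2 in total RNA and 0 to 1 in polysomal RNA.

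The library numbers do not establish a pairing, since nothing in the labels says what they share. Same-numbered libraries deviated from their group means with a correlation of 0.50 between the LSK fractions, 0.51 and −0.63 between the MP fractions, 0.79 between the populations in total RNA, and 0.75 and −0.08 in polysomal RNA. With the replicate block Klf1 was called over both fractions, at 3.19 (edgeR adjusted p = 0.00612), and in total RNA, at 4.15 (edgeR adjusted p = 0.0292), as was Gata1 in total RNA at 2.20 (edgeR adjusted p = 0.0393). The block turned Zfpm1 to −0.93 in polysomal RNA and −0.11 over both, and the LSK polysomal to total ratio of Nfe2 to −0.10 and of Hemgn to −0.19.

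Directions of uncalled estimates turned in other settings as well. For MP over LSK in total RNA, Hemgn was −0.22 with library totals, −0.11 with the authors' values and −0.009 without both LSK libraries numbered 2, and Ldb1 was −0.28 with library totals, −0.13 with the GC trend removed and −0.005 with the block added. Without both LSK libraries numbered 2, polysomal Nfe2 was 0.038, polysomal Ldb1 0.55 and Ldb1 over both 1.22, and Ldb1 over both was 0.004 without both MP libraries numbered 1. The LSK polysomal to total ratio of Nfe2 was −0.34 with library totals, −0.16 with the authors' values, −0.83 without both LSK libraries numbered 2, −0.15 with the GC trend removed and −0.29 with the block added. That of Hemgn was −0.13 with library totals and −0.24 with the authors' values, and that of Zfpm1 was 0.29 without both LSK libraries numbered 2. The MP ratio of Ldb1 was 0.30 with the GC trend removed and 0.37 with the block added, and the difference of the Gata1 ratios was 0.17 in that last setting.

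Leaving out each library in turn, the total RNA estimate ran from −0.64 to 0.066 for Nfe2, −4.85 to 6.26 for Zfpm1, −0.50 to 0.55 for Hemgn and −0.67 to 1.88 for Ldb1. In polysomal RNA it ran from −1.44 to 0.041 for Nfe2, −3.05 to 4.996 for Zfpm1 and −1.40 to 0.56 for Ldb1, and over both from −1.76 to 3.79 for Zfpm1 and −0.75 to 0.52 for Ldb1. The LSK ratio of polysomal to total RNA ran from −3.56 to 1.86 for Klf1, −0.88 to 0.58 for Nfe2, −5.21 to 3.97 for Zfpm1, −1.38 to 0.89 for Hemgn and −0.65 to 2.50 for Ldb1, and the MP ratio from −2.29 to 0.35 for Klf1, −5.35 to 4.63 for Zfpm1 and −0.73 to 0.59 for Ldb1. What set the precision of these estimates was not tested.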
